A study of Mus musculus with 10 samples.

Results

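The cytosolic ribosomal protein genes encode the proteins of the small and large subunits of the ribosome that translates messenger RNA in the cytoplasm. Members were the genes with an array row (a transcript cluster, 1 summary value for a set of probes) whose annotation gave 1 distinct symbol beginning with Rpl or Rps and then a digit, or p and a digit. Rps6k, Rps19bp and pseudogene (-ps) symbols were left out, and of several rows for a gene the one with the highest mean was kept. This gave 42 genes from 48 rows, of 29766 genes in all. The RNA is labelled as cochlea, the hearing organ, and was isolated from ground inner ear. The mice were CBA/CaJ at 6 months of age, described as hearing normally, and 1 array was hybridised per sample. All mice were housed singly. The 5 samples called runners came from mice with a running wheel in the cage and the 5 controls from mice without one. CBA/CaJ is an inbred strain used for hearing loss that comes late in life, and the comparison asks whether access to a wheel went with other transcript levels at this age.

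The small subunit reads the messenger RNA and the large subunit joins the amino acids, while a stalk of acidic P proteins on the large subunit recruits translation factors. Cells make these proteins in nearly equal numbers, and most of their messenger RNAs begin with a run of pyrimidines, the 5′ terminal oligopyrimidine (TOP) tract, through which mTORC1 controls their translation. A few genes have a relative (paralog) used in particular tissues, such as Rpl3l in skeletal and heart muscle and Rpl10l in testis.

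Sequences at the start of 34 of the 42 members were found by symbol in RefSeq (assembly GRCm38.p6). They are shown because this tract is the sequence feature the family is known for. In each line the window holds 15 bases on each side of the annotated start, and capitals mark a C followed by at least 5 more C or T that begins within 5 bases of it. The first 4 have such a tract and the last 2 do not.
Rpl35 (chr2:39005117-39005146, minus strand): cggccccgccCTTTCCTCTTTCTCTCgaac
Rpl7a (chr2:26910792-26910821, plus strand): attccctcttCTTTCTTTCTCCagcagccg
Rps18 (chr17:33955651-33955680, minus strand): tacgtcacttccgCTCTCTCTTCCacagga
Rpl38 (chr11:114668565-114668594, plus strand): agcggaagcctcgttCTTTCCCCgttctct
Rpl4 (chr9:64173372-64173401, plus strand): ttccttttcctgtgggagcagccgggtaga
Rplp0 (chr5:115559452-115559481, plus strand): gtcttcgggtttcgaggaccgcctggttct
A tract stood at the annotated start of 12 of the 34 members (35.3%) and of 2976 of the 27025 genes in the RefSeq table (11.01%). An annotated start can lie away from the base where most transcripts begin. In the 300 bases from 250 before to 50 after the start, CCGGAAG, a core of ETS family sites, was present on either strand in 15 members (44.1%) and 9.93% of genes. AAGATGG, a core of YY1 sites, was present on either strand in 5 members (14.7%) and 7.28% of genes. TATAAA was present on either strand in 6 members (17.6%) and 15.7% of genes. The 12 members with a tract had a median runner minus control difference of -0.046 on the log2 scale and the 22 without one -0.051.

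No ribosomal protein gene passed the test between runners and controls, and most of the 42 moved together from array to array. Runners 2 and 4 were low and runner 1 was high for nearly the whole family. By limma, 0 of the 42 passed an adjusted p under 0.05 (0.00672% of all genes, 2 genes, passed). The smallest adjusted p of a member was 0.704. At an unadjusted p under 0.05, 0 of the 42 were lower in runners and 0 higher, beside 3.92% and 3.21% of all genes (7.13% in either direction). The groups did not overlap for 0 members, beside 0.927% of all genes. The median difference was -0.055, beside 0.00091 over all genes, and 34 of 42 members were lower in runners (30 after median centring of the arrays), beside 49.5% of all genes. These 34 are not separate pieces of evidence, since the members moved together within arrays. Whether the arrays stand for different animals is not in the labels, and the p-values then cover only the variation among these samples, which could be technical.

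The values by array show this shared movement. In runner 2, 39 of the 42 members lay below their own mean over the 10 arrays, with a median of -0.20. In runner 4, 40 of 42 lay below it, with a median of -0.18. In runner 1, 39 lay above, with a median of 0.13, and in control 3, 41 lay above, with a median of 0.093. The other 6 arrays were closer to the mean. Their medians were -0.015 in control 1, 0.037 in control 2, 0.043 in control 4, -0.016 in control 5, 0.032 in runner 3 and 0.053 in runner 5. Runner 2 was the lowest of all 10 arrays for 25 members and runner 4 for 13, and runner 1 was the highest for 18 and control 3 for 10. In 31 members (73.8%) both runner 2 and runner 4 lay below the 8 other arrays, beside 11.9% of all genes. The pair was singled out after the values were seen, so these shares are a description. In bulk tissue fewer cells of a type and less RNA per cell cannot be told apart.

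**Figure D1:**
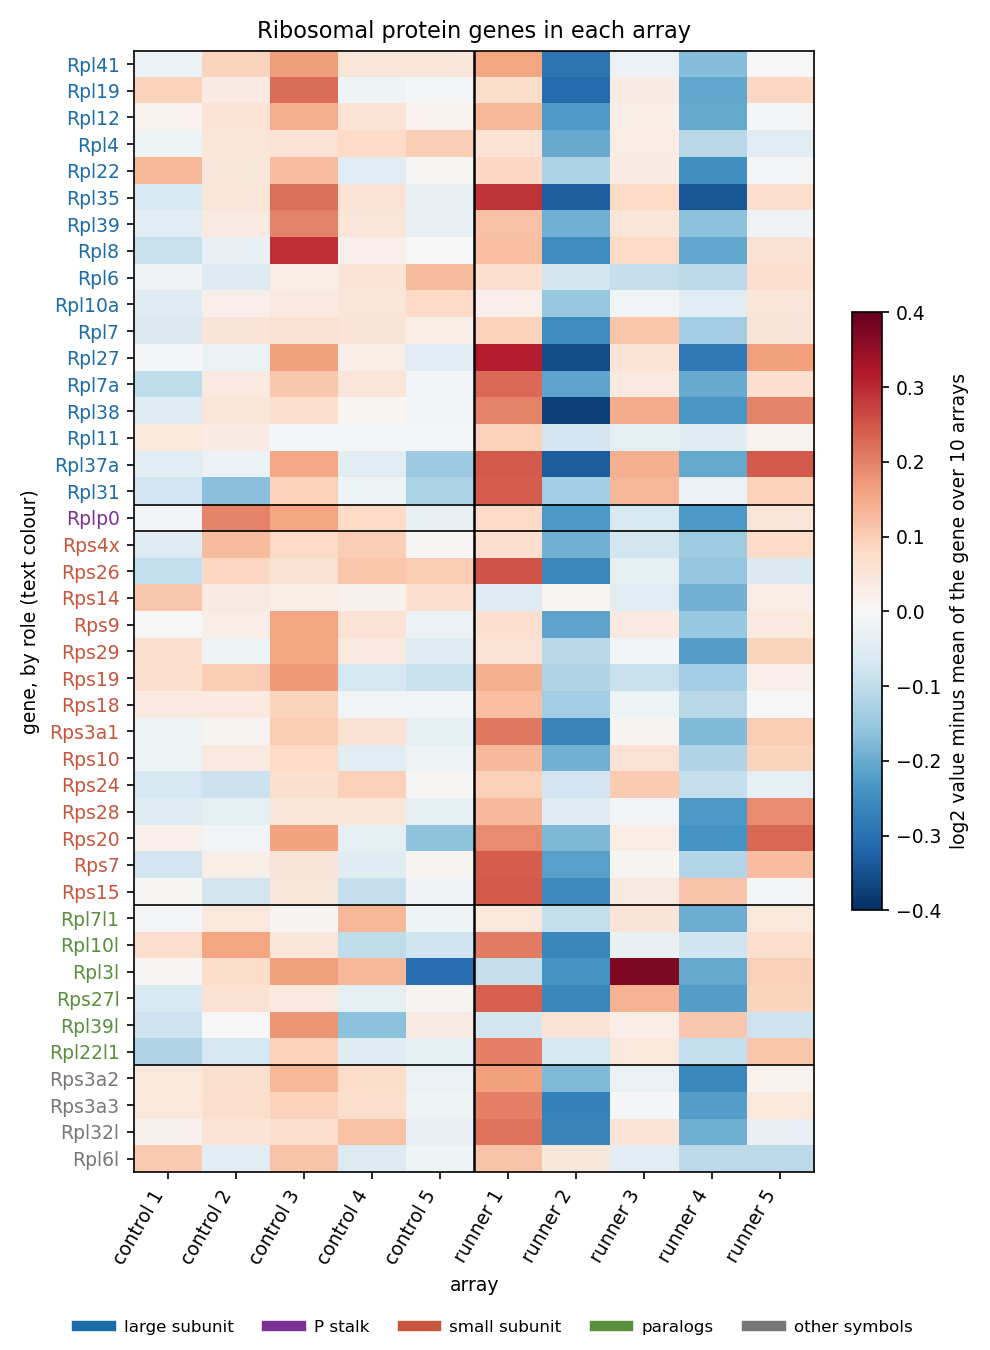
Heat map of the 42 genes (lines, grouped by role) in the 10 arrays (columns), coloured by the log2 value minus the mean of that gene over the 10 arrays. The columns of runners 2 and 4 are blue for 39 and 40 genes, and those of control 3 and runner 1 are red for 41 and 39.

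The spread therefore lay mostly within the runners. The SD was larger among runners than among controls for 41 of 42 members, beside 67.6% of all genes. It was also larger for 91.2% of genes with a -ps symbol and 88.6% of mitochondrial ribosomal protein genes. The share was 88.2% for translation factors of the TOP class and 82.65% for genes with a mean log2 value of at least 10. The median SD over the members was 0.16 in runners and 0.072 in controls (n = 5 each), beside 0.13 and 0.098 over all genes. The residual SD of the members had a median of 0.12, as it had over all genes. The standard errors of the differences ran from 0.050 to 0.12, and the 95% intervals of all 42 lay between -0.35 and 0.29. The lowest end was that of Rpl35 and the highest that of Rpl31. These intervals are not adjusted for the number of genes tested, and their ends are not limits of detection. The test does not show that the groups are alike.

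Genes of the large subunit came first by number, with 15 of 17 members lower in runners, 0 of them passing, and a median difference of -0.058. Rpl41, which encodes the smallest protein of the ribosome, read 11.07, 11.18, 11.26, 11.14 and 11.14 in controls 1 to 5 and 11.25, 10.80, 11.07, 10.92 and 11.09 in runners 1 to 5. Runner 1 was second of all arrays and runner 2 last. Its difference was -0.13 ± 0.079 (SE; limma adjusted p = 0.756). Rpl19 read 8.90, 8.84, 9.03, 8.79 and 8.80 in controls and 8.88, 8.50, 8.84, 8.60 and 8.89 in runners. Only runners 2 and 4 lay below the controls, and 3 runners lay among them (difference -0.13 ± 0.085 SE; limma adjusted p = 0.777). Rpl4, a protein that lines the exit tunnel, read 10.64, 10.71, 10.72, 10.74 and 10.76 in controls and 10.72, 10.46, 10.69, 10.55 and 10.62 in runners (difference -0.11 ± 0.060 SE; limma adjusted p = 0.743). Runners 2, 4 and 5 were below all controls. Rpl11, whose protein also binds Mdm2 when ribosome assembly fails, had the narrowest standard error of the family, with 6.96 ± 0.021 (SD) in controls and 6.94 ± 0.065 (SD) in runners. Its difference of -0.023 ± 0.050 (SE) turned to 0.00067 when arrays were centred on their medians.

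Rpl31 and Rpl37a were the 2 large subunit members with a positive difference. Rpl31 read 5.95, 5.86, 6.12, 6.01 and 5.90 in controls and 6.27, 5.89, 6.16, 6.00 and 6.12 in runners, with the groups overlapping (0.12 ± 0.077 SE; limma adjusted p = 0.777). Its value came from a row that does not carry the chromosome of the Rpl31 gene, as described further on. For Rpl37a the controls averaged 7.89 ± 0.11 (SD) and the runners 7.92 ± 0.27 (SD), with runner 2 lowest and runner 5 highest. Its difference was 0.036, and -0.019 without runner 1.

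Rplp0 was the 1 measured gene of the P stalk and had the smallest p of the family. It encodes the stalk base that carries the P1 and P2 proteins, and it is a common reference gene for RNA measurements. It read 8.67, 8.88, 8.84, 8.76 and 8.65 in controls and 8.76, 8.45, 8.62, 8.45 and 8.73 in runners. Runners 2, 3 and 4 were below every control, while runners 1 and 5 lay among them. Controls averaged 8.76 ± 0.10 (SD, n = 5) and runners 8.60 ± 0.15 (SD, n = 5). The difference was -0.16 ± 0.077 (SE), with a 95% interval from -0.33 to 0.010. It did not pass (limma adjusted p = 0.704).

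In the small subunit 10 of 14 members were lower in runners, 0 of them passing, with a median difference of -0.055. Rps14, which is needed to mature the RNA of the small subunit, read 6.85, 6.78, 6.77, 6.76 and 6.81 in controls and 6.69, 6.75, 6.70, 6.55 and 6.77 in runners. This gene departed from the family: runner 1 was not high and runner 2 was not the lowest, and 4 runners lay below all controls. The difference was -0.10 ± 0.056 (SE; limma adjusted p = 0.729). Rps4x, the X-linked member, read 7.99, 8.17, 8.12, 8.14 and 8.05 in controls and 8.11, 7.85, 7.97, 7.90 and 8.12 in runners (-0.10 ± 0.067 SE; limma adjusted p = 0.775). Rps19, a gene mutated in Diamond-Blackfan anemia, differed by -0.076 ± 0.073 (SE; limma adjusted p = 0.850), with 3 runners below all controls.

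The small subunit members with a positive difference were Rps7, Rps15, Rps20 and Rps28. Rps15, which takes part in export of the small subunit from the nucleus, read 8.47, 8.39, 8.51, 8.37 and 8.45 in controls and 8.71, 8.21, 8.50, 8.58 and 8.46 in runners. Its lowest and highest values were both in runners (0.056 ± 0.082 SE; limma adjusted p = 0.909). The difference was 0.0011 without runner 1 and 0.13 without runner 2. Rps7 also had both ends in runners, 9.22 in runner 2 and 9.68 in runner 1, around controls from 9.36 to 9.49. Its difference was 0.015, and -0.044 without runner 1.

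**Figure D2:**
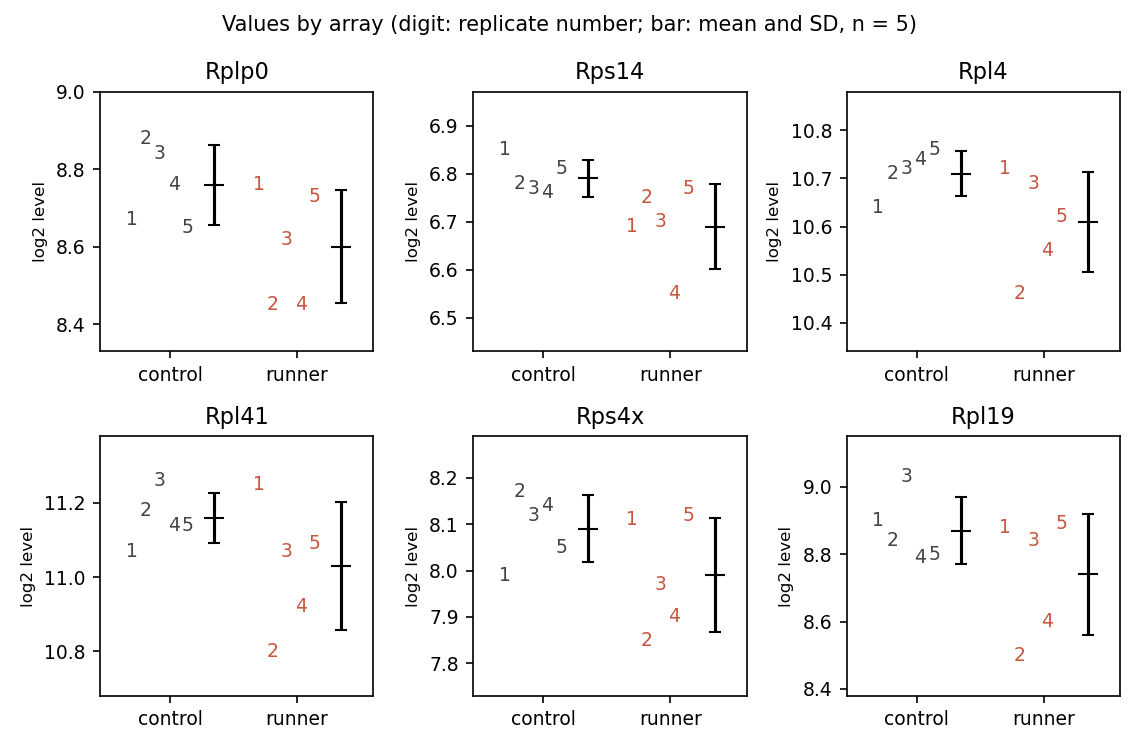
Log2 level in each array of the 6 members lower in runners that had the smallest p, with digits for the replicate number and bars for the mean and SD of each group of 5. Rplp0, Rpl41, Rpl4, Rps4x and Rpl19 have runners 2 and 4 lowest, and the groups overlap in all 6 panels.

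**Figure D3:**
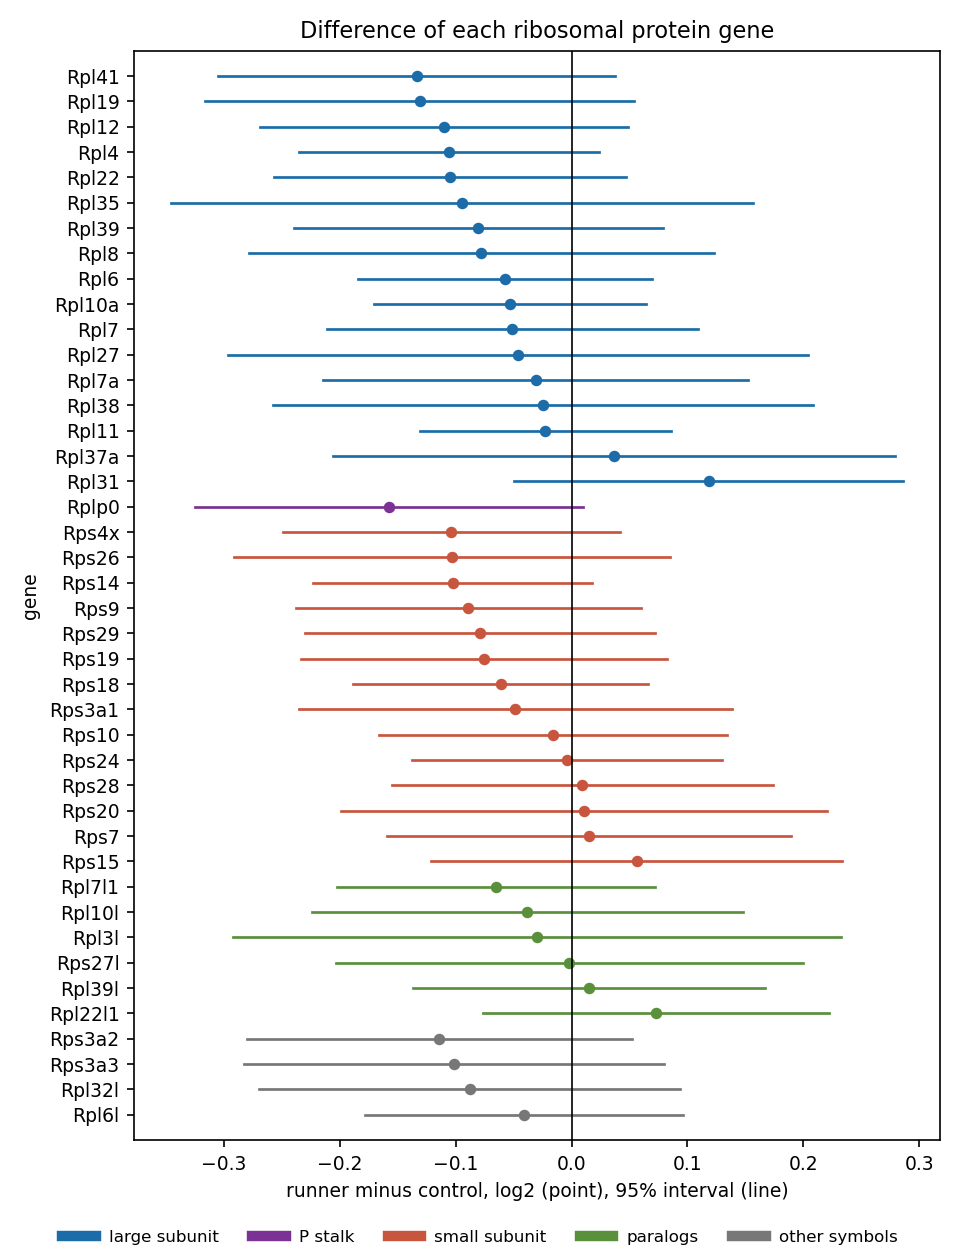
Runner minus control difference of the 42 genes on the log2 scale (points) with 95% intervals (lines), coloured by role. The points run from -0.16 for Rplp0 to 0.12 for Rpl31, and the intervals of all 42 genes include 0.

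Paralogs were measured for 6 of the 11 listed, with 4 lower and 2 higher in runners, 0 passing, and a median difference of -0.016. In both groups the means of Rpl3l, Rpl10l, Rpl22l1 and Rpl39l lay below the array medians of 5.35 to 5.43 over all genes. Their values by themselves do not show that these paralogs were expressed, and their patterns may be background signal. Rpl3l, the form of striated muscle, did not follow the family in every array. It read 5.26, 5.33, 5.42, 5.39 and 4.95 in controls and 5.16, 5.02, 5.63, 5.05 and 5.35 in runners, so control 5 was the lowest and runner 3 the highest. The mean of 11 skeletal muscle genes was also highest in runner 3, at 9.09, and was 8.13 in runner 2 and 8.15 in control 5, its lowest arrays. That mean ran from 8.15 to 8.85 in controls and from 8.13 to 9.09 in runners, and its part in the Rpl3l values was not tested. The Rpl3l difference was -0.030 ± 0.12 (SE; limma adjusted p = 0.978), and 0.058 with array weights.

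Rpl22l1, the relative of Rpl22, read 5.05, 5.10, 5.26, 5.12 and 5.13 in controls and 5.37, 5.10, 5.21, 5.07 and 5.28 in runners (0.073 ± 0.069 SE; limma adjusted p = 0.846). Rpl22 itself differed by -0.10 ± 0.070 (SE; limma adjusted p = 0.777). The signs of this pair were opposite and neither passed. Rps27l, a gene that p53 can induce, had 6.24 in both groups, with an SD of 0.051 in controls and 0.22 in runners. Its difference of -0.0020 turned to 0.021 when arrays were centred on their medians and to 0.016 with repeated quantile normalization. Rpl39l, the relative of Rpl39, was the one paralog whose SD was smaller in runners (0.081) than in controls (0.13), and runners 2 and 4 were not low for it, at 4.68 and 4.73 beside controls from 4.46 to 4.80. Rpl7l1 and Rpl10l differed by -0.065 and -0.038. The 4 symbols in none of the role lists (Rpl6l, Rpl32l, Rps3a2 and Rps3a3, of which RefSeq lists Rpl6l, Rps3a2 and Rps3a3 as pseudogenes) were lower in 4 of 4, with a median of -0.095 and 0 passing.

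The rows themselves limit what a level means, because the mouse genome holds many processed copies of these genes whose sequence the probes can share. The identifiers of the rows carry a chromosome, which matched that of the gene in RefSeq for 99.2% of the rows of other genes. For 6 of the 42 members (Rpl12, Rpl27, Rpl31, Rpl35, Rpl41 and Rps26) the row kept carried another chromosome. Of these, 4 also had a row on the gene's own chromosome. The second row of Rpl35 gave a difference of -0.13 ± 0.072 (SE) where the kept row gave -0.095 ± 0.12. For Rpl41 it gave -0.070 ± 0.074 where the kept row gave -0.13 ± 0.080, for Rps26 -0.077 ± 0.10 where the kept row gave -0.10 ± 0.088, and for Rpl27 -0.0053 ± 0.078 where the kept row gave -0.046 ± 0.12. These errors are from a fit over every row, and the sign was the same in all 4 pairs. Another, dim row of Rps26 (3.14 in controls and 3.24 in runners) differed by 0.10 ± 0.071. Rpl12 and Rpl31 had no row on their own chromosome. In a comparison chosen after the data were seen, with only rows on the gene's own chromosome, 40 members remained, 33 were lower and 0 passed.

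Rows named for pseudogenes followed the same arrays. Of 193 genes with a -ps symbol 167 were lower in runners (86.5%), 0 passed, and the median difference was -0.065. Their median was 0.20 in runner 1, -0.27 in runner 2 and -0.18 in runner 4. Whether such rows report copies or the parent transcripts was not tested. The canonical set of ribosomal proteins in the lists held 79, of which 32 had a member row. Of the other 47, 37 were named in rows that carry several symbols, and 10 were not. Among these 10, Rpsa and Fau had a row with 1 symbol, which the symbol rule left out. The rest had neither kind of row. The 52 rows that name a canonical gene among several symbols had 45 lower, 0 passing and a median difference of -0.058, with medians of 0.12 in runner 1, -0.20 in runner 2 and -0.17 in runner 4.

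Other genes of translation were described from lists, beside the same median of 0.00091 over all genes. Of 17 measured translation factors and related genes whose messenger RNAs are of the TOP class, 16 were lower in runners, 0 passed and the median was -0.035. Eef1b2, an exchange factor of elongation, read 7.71, 7.78, 7.88, 7.83 and 7.73 in controls and 7.73, 7.50, 7.77, 7.54 and 7.73 in runners (-0.14 ± 0.067 SE; limma adjusted p = 0.704). As in the ribosomal proteins, runners 2 and 4 were lowest. The poly(A)-binding protein gene Pabpc1 differed by -0.19 ± 0.10 (SE; limma adjusted p = 0.729), with runner 5 lowest. Of 28 ribosome biogenesis genes, 20 were lower and 0 passed, with a median of -0.019. Their array medians followed the family only in part. They were -0.13 in runner 2, -0.062 in runner 4 and -0.058 in control 1, but -0.0081 in runner 1 and 0.072 in runner 3. Nop58 and Nop10 were named for the smallest p of this list. Nop58, of the complex that methylates ribosomal RNA, read 8.18, 8.20, 8.31, 8.32 and 8.32 in controls and 8.21, 7.84, 8.24, 7.98 and 8.10 in runners (-0.19 ± 0.078 SE; limma adjusted p = 0.651). Nop10, of the complex that makes pseudouridine, differed by -0.16 ± 0.079 (SE; limma adjusted p = 0.707), and runners 2 and 4 were lowest for both.

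Mitochondrial ribosomal protein genes, which serve the separate ribosome of mitochondria, did not follow the cytosolic ones in every array. Of 79, 46 were higher and 33 lower in runners, 0 passed, and the median difference was 0.017. Their median was -0.15 in runner 2 and -0.062 in runner 4, but 0.0052 in runner 1, 0.14 in runner 3 and 0.11 in runner 5. Mrps31 and Mrps17 had the smallest p, at 0.18 ± 0.082 and 0.15 ± 0.073 (SE; limma adjusted p = 0.696 and 0.705).

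Regulators of mTORC1 and Myc were higher in 12 of 18, 0 passing, with a median of 0.014. Ddit4, an inhibitor of mTORC1 also induced by glucocorticoids and hypoxia, read 8.26, 8.09, 8.12, 7.27 and 7.97 in controls and 8.43, 7.94, 8.59, 8.52 and 8.51 in runners. It was higher in 4 of 5 runners than in every control (0.46 ± 0.17 SE; limma adjusted p = 0.619), and the difference was 0.29 without control 4. Sesn1 differed by 0.15 ± 0.071 (SE; limma adjusted p = 0.700). Of 11 genes of the p53 response, 7 were lower and 4 higher, 0 passing, with a median of -0.028. Cdkn1a and Gtse1 were named for the smallest p of this list. The cell cycle inhibitor Cdkn1a read 7.38 to 7.68 in controls and 7.74 to 7.94 in runners (0.32 ± 0.067 SE, limma adjusted p = 0.370). Its groups did not overlap, as was so for 0.927% of all genes. Gtse1 differed by -0.22 ± 0.079 (SE, limma adjusted p = 0.607).

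**Figure D4:**
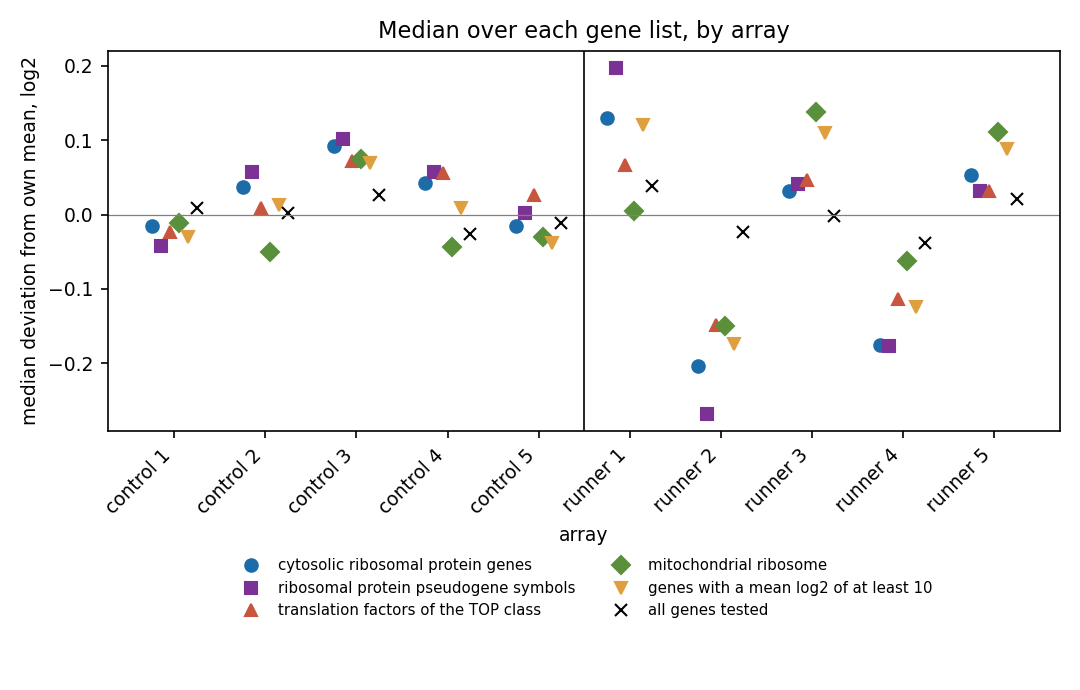
Median over each gene list of the log2 value minus the mean of the gene over the 10 arrays, by array, for 6 lists. In runner 2 the cytosolic ribosomal protein genes are at -0.20, pseudogene symbols at -0.27, mitochondrial ribosomal protein genes at -0.15, genes with a mean of at least 10 at -0.17 and all genes at -0.024.

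Bright genes moved with these arrays in part. The 732 genes with a mean log2 value of at least 10 had a median of 0.12 in runner 1, -0.17 in runner 2 and -0.12 in runner 4, and 0.11 and 0.087 in runners 3 and 5. In runner 4, 259 of the 732 (35.4%) lay above their own mean, where 2 of the 42 members did. In runner 2, 94 of the 732 (12.8%) and 3 of the 42 members lay above it. In runner 1, 605 of the 732 (82.65%) and 39 of the 42 members did. Between the groups the bright genes had a median difference of -0.0029, with 374 of 732 lower in runners (51.1%) and 0 passing. All genes had 0.038, -0.024, -0.038, -0.0021 and 0.021 in runners 1 to 5. The part of brightness in the ribosomal protein values was not tested. Marker lists of cell types had orders of arrays that matched the family's only in part. Of 12 genes of supporting cells, stria and ligament, 12 were lower in runners and 0 passed, and their mean ran from 6.98 to 7.22 in controls. It was 7.28, 6.94, 6.67, 6.66 and 6.81 in runners 1 to 5, so runner 2, the lowest array for the ribosomal proteins, was second highest of the runners. Of 10 neutrophil genes 10 were lower and 0 passed, with means from 8.75 to 9.14 in controls and from 8.68 to 9.17 in runners. Runner 1 was highest for them, and runners 2 to 5 all lay between 8.68 and 8.71. Of 11 B lineage genes 11 were lower and 0 passed, with means from 6.41 to 6.75 and from 5.92 to 6.38, lowest in runner 3. Of 9 erythroid genes 9 were lower and 0 passed, with means from 7.98 to 8.39 and from 7.81 to 8.31, also lowest in runner 3. All of 11 cell cycle, 10 macrophage and 10 hair cell genes were lower too, with 0 passing. The macrophage and hair cell means were highest in runner 1, as for the ribosomal proteins. Their lowest arrays were runner 5 for macrophages and runner 3 for hair cells, and runner 3 was also lowest for the cell cycle. In runners 3 and 5, where the neutrophil, B lineage and erythroid medians lay below 0, 26 and 30 of the 42 ribosomal protein genes lay above their own mean. In runner 1 these medians lay above 0 (0.30, 0.013 and 0.17), as the family's did. In runners 2 and 4 the neutrophil (-0.19 and -0.20) and erythroid medians (-0.22 and -0.025) lay below 0, as the family's did. The B lineage median was 0.059 in runner 2 and -0.30 in runner 4. Other lists were higher in runners, with 7 of 7 adipocyte genes (median difference 0.49), 8 of 9 genes of spiral ganglion and other neurons (0.11) and 7 of 9 brain genes (0.10), and 0 passing in each. Of 11 bone genes 9 were lower, with a median of -0.22, and 2 passed. The part of these cell types in the ribosomal protein values was not tested.

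Leaving out single arrays changed the family's counts. Without runner 1, an unadjusted p under 0.05 was reached by 7 members, all lower in runners (16.7% of the 42, beside 8.59% of all genes) and 38 were lower in all, with a median difference of -0.097. The 7 were Rps26, Rpl41, Rplp0, Rps3a2, Rpl12, Rps3a3 and Rpl4. None passed the adjusted threshold, the smallest adjusted p being 0.231, while 99 genes (0.333%) did. Without runner 2 the count of members lower fell to 24 and without runner 4 to 28, each with a median of -0.024. Without runner 1 and control 1 together, chosen after the data were seen, 38 were lower, 7 at an unadjusted p under 0.05 (9.07% of all genes). None passed, where 1.43% of all genes did, and the smallest adjusted p was 0.121, for Rps26.

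Over all genes tested the median log2 value per array lay between 5.35 and 5.43, and Pearson correlations between arrays across genes ran from 0.991 to 0.997. Defining markers of the cochlea were measured, with list means of 5.03 to 5.41 for 10 hair cell genes. The means were 6.66 to 7.28 for 12 genes of supporting cells, stria and ligament, above the array medians of 5.35 to 5.43. The hair cell means lay near or below those medians, so by themselves they do not show that the hair cell genes were expressed. List means were 8.17 to 8.62 for brain, 8.13 to 9.09 for skeletal muscle and 8.68 to 9.17 for neutrophil genes, above those medians. The samples may therefore hold more than cochlea.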

How the data were processed

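Per the labels' protocols, inner ear tissue was frozen and powdered, and its total RNA was prepared with the Affymetrix WT PLUS kit. The deposited table holds log2 values that the authors made, for which the submitters' processing notes list RMA and Partek but give no version. For build and filters, nothing is given in the sources used here. RMA usually gives every array one distribution, which hides a shift common to most genes.

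Of 39295 rows, 30130 had 1 distinct symbol, 2146 several and 7019 none, and 827 symbols were updated through Entrez identifiers. Per gene the row with the highest mean was kept, giving 29766 genes. Arrays were grouped by their labels, 5 against 5. The test was limma 3.58.1 under R 4.3.3 (group alone, lmFit and eBayes, two-sided, Benjamini-Hochberg over all genes, threshold 0.05), and differences are runner minus control. Simulated arrays of this size, with 29766 genes, recovered 81% of 100 genes changed by 0.5 log2 and 100% of 100 changed by 1. There were 13 false calls among the genes left unchanged. The simulated noise was independent between genes and had the same SD in both groups, unlike that of the members. Figures used matplotlib 3.10.9.

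The members and lists were chosen with earlier results of these data known. Genes were named by rule: the 6 members with the smallest p in each direction, and the 3 highest and 3 lowest means. The rule also named the P stalk, the paralogs, Rpl11 and Rps19, and the 2 genes with the smallest p per companion list. Genes with several rows, and those singled out beside them (Rpl22, Rps20, Rps28, Rps3a3, Rpl6l and Rpl32l), were named after their values were seen. The protein comparison of paralogs was not run. Levels of different probes are not comparable, so the rule on highest and lowest means only chose names, and no order of levels between genes is reported.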

Additional observations from a re-analysis of the deposited data

Results flagged for a closer look

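Within groups of 5, 1 array stood apart by Dixon's criterion in 3 of 106 gene and group combinations examined, where chance gives about 1 in 20. Rps26 was 10.37 in control 1, below the other controls at 10.53 to 10.58. Nop10 was 7.13 in control 2, above the other controls at 7.04 to 7.05 (rounded). Ddit4 was 7.94 in runner 2, below the other runners at 8.43 to 8.59.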

How the results depend on the processing

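No member passed under any of the alternatives run. The median difference stayed below 0 in all of them, from -0.097 to -0.024 with 1 array left out and -0.032 with median centring. It moved by less than the SD of the array medians (0.11). That SD exceeds the size of the difference itself (-0.055), so a move past 0 could also have stayed within it. The number of members lower was 24 to 38 with 1 array left out. Members lower at an unadjusted p under 0.05 were 0 as reported, 1 without moderation, 3 with repeated quantile normalization, 7 without both replicates numbered 1, and 0 to 7 with 1 array left out; members higher were 0 to 1. Of 34 named genes 25 kept their sign in every setting. Signs turned for Rpl3l with array weights (0.058), Rps27l with repeated quantile normalization (0.016) and median centring (0.021), Rpl11 with median centring (0.00067), and, without both replicates numbered 1, Rpl37a (-0.025) and Rps7 (-0.061). With 1 array left out they ranged from -0.095 to 0.023 for Rpl10l, -0.13 to 0.037 for Rpl27, -0.020 to 0.12 for Rpl37a, -0.025 to 0.061 for Rpl39l, -0.13 to 0.026 for Rpl3l, -0.091 to 0.018 for Rpl7a, -0.062 to 0.062 for Rps27l and -0.044 to 0.071 for Rps7. The cause was not tested. Over all genes 15 passed with array weights, 1 without moderation, 426 without both replicates numbered 1 and 2 to 99 with 1 array left out. The filter at a mean of 5 left out Rpl39l. Same-numbered arrays did not deviate together (correlations from -0.25 to 0.28, 0 of 5 numbers matching best with their own). These 5 correlations cannot exclude that the numbers pair arrays. With the replicate number as a block 0 members passed, 34 were lower and 2 genes passed over all. With 5 arrays a group, small differences cannot be seen.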
